A study of Mus musculus with 16 samples.

Results

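Co-binding of Oct4defSox2 and Sox2 was measured in Oct4defSox2-SK cells at day 1, by comparing the summits of 2 ChIP-seq libraries. A summit is the base at which the pulled-down DNA of a called peak is densest. Summits on chromosomes 1 to 19, X and Y were used, 31060 for Oct4defSox2 and 5793 for Sox2. A summit was called co-bound when a summit of the other library lay within 100 bp, and otherwise Oct4defSox2-alone or Sox2-alone. This gave 2711 co-bound (8.73%) and 28349 Oct4defSox2-alone summits in the Oct4defSox2 library, and 2713 co-bound (46.8%) and 3080 Sox2-alone summits in the Sox2 library. The co-bound summits formed 2710 pairs that were each other's nearest neighbour, of 227116 summits in the series.

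OG2 MEFs were used, embryonic fibroblasts of mice with an Oct4-GFP reporter, and day 0 was the change into iCD1, a chemically defined reprogramming medium. All groups received pMX retroviruses for Sox2 and Klf4 (SK) and for a POU factor. In Oct4defSox2-SK that factor was Oct4 with I21Y and D29R, as the depositors number its residues, built to disrupt the dimer that Oct4 forms with Sox2 on DNA. Other libraries used here were Oct4 in Oct4-SK (days 1, 5 and 7), Oct4defSox2 in Oct4defSox2-SK at day 5, Sox2 in Oct4-SK (days 1 and 5), in Oct6-SK (days 1 and 5) and in Oct4defSox2-SK at day 5, Oct4S151M in Oct4S151M-SK at day 1, and Oct6M151S in Oct6M151S-SK. The labels of the last disagree on its day (1 in the title, 2 elsewhere). Each group had 1 library from unsorted cells, so no test across replicates was possible, and intervals below are 95% intervals for counting error among summits only. Oct4defSox2 was pulled down with an Oct4 antibody and Sox2 with a Sox2 antibody, in separate reactions, so binding of both proteins to the same DNA molecule and binding to the same site in different cells cannot be told apart.

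Oct4 is a POU factor that reads the octamer ATGCAAAT through its POU domain. Sox2 is an HMG-box factor that bends DNA and reads short sites such as CCATTGT or CCTTTGT. On the composite SoxOct element, a Sox site followed by an octamer, the factors bind side by side and contact each other, an arrangement known from enhancers of pluripotency genes. POU factors can also bind as homodimers to the palindromic MORE element. AP-1 sites (TGACTCA) are typical of enhancers active in fibroblasts.

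Sequences of the pairs that stood highest in both libraries are shown to let the motifs at co-bound sites be read directly. The pairs were ranked by the lower of their within-library score percentiles, where the score is MACS2's p-value for the summit, deposited as −log10. Each window reaches 100 bp to either side of the Oct4defSox2 summit and is given 5′ to 3′ on the plus strand of GRCm38 (mm10). Capitals mark the match to a single Sox, SoxOct or MORE motif with fewest mismatches, the nearest to the summit among equals, written as its reverse complement where it lies on the minus strand.
Fhit pair, chr14:10174987-10175187: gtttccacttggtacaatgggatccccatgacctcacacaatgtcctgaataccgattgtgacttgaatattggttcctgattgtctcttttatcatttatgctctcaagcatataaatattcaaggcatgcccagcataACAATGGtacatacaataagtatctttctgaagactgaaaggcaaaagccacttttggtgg
Bach2 pair, chr4:32176512-32176712: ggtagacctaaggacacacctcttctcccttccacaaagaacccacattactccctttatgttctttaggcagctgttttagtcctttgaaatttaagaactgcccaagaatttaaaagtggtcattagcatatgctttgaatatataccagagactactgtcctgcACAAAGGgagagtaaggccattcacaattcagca
Filip1l pair, chr16:57473549-57473749: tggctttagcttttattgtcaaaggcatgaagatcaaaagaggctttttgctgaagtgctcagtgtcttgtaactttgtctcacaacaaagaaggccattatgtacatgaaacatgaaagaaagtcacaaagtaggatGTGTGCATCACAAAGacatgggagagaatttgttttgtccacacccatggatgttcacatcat
Fzd1 pair, chr5:4697365-4697565: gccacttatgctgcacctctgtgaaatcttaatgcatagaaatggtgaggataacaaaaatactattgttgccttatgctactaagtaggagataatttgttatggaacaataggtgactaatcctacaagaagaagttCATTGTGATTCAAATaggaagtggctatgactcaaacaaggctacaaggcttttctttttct
Rb1 pair, chr14:73314150-73314350: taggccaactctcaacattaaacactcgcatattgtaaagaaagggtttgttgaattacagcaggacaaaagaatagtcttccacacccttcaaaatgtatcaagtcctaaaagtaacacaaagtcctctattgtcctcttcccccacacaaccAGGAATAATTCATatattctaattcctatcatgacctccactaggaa

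The Fhit pair lay in an intron, 247 kb from the start of this gene for a nucleotide hydrolase, and ranked first, with an Oct4defSox2 score of 175 and a Sox2 score of 31.0. Its summits were 61 bp apart, and the capitals mark a Sox site 43.0 bp from the Oct4defSox2 summit. The Bach2 pair, 62.2 kb from the start of this gene for a transcriptional repressor, scored 74.6 and 28.8 with summits 17 bp apart, and also held a Sox site and no POU motif. It had a Sox2 summit in all 5 other Sox2 libraries and no summit in any Oct4 library.

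POU motifs of both kinds appeared among these pairs, each with mismatches to its consensus. The Filip1l pair, in an intron 75.6 kb from a coding start (scores 86.1 and 32.3, summits 93 bp apart), held SoxOct with 2 mismatches. The Fzd1 pair, between genes and 60.6 kb from the start of this Wnt receptor gene (104 and 25.3, 83 bp apart), held SoxOct with 1 mismatch. The Rb1 pair, in an intron 11.6 kb from the start of the retinoblastoma gene (108 and 25.6, 72 bp apart), held a MORE variant with 1 mismatch. The other pairs among the 8 ranked highest lay near Phf3 (83.2 and 41.7), Rc3h1 (73.5 and 34.6) and Slc22a22 (77.7 and 24.5). Of the 8, 3 held a Sox site, 2 SoxOct, 1 MORE and 2 none of these.

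Windows of Oct4defSox2-alone and Sox2-alone sites, which have no summit of the other factor within 100 bp, are shown for contrast, centred on the alone summit and with the same marking.
Sik3 Oct4defSox2-alone site, chr9:46083735-46083935: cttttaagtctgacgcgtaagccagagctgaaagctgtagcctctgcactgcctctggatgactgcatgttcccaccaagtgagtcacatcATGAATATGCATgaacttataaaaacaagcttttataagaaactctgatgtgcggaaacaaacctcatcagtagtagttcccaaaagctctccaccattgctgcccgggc
Nr2f2 Oct4defSox2-alone site, chr7:69781149-69781349: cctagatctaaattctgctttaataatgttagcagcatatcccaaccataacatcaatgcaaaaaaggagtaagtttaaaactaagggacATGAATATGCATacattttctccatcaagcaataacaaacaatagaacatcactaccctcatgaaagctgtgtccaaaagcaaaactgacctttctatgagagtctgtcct
Lpar6 Sox2-alone site, chr14:73253523-73253723: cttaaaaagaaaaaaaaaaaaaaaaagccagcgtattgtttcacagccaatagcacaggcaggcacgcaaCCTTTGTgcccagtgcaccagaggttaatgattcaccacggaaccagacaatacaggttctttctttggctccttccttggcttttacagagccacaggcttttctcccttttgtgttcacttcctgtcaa

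The Sik3 and Nr2f2 sites scored 617 and 580 for Oct4defSox2, were exceeded by 1 other Oct4defSox2-alone summit, and held exact MORE matches 3.50 and 4.50 bp from the summit. Their nearest Sox2 summits were 619400 and 110753 bp away. The Sik3 site lay in an intron and the Nr2f2 site between genes, 579 kb from the start of this nuclear receptor gene. The highest Oct4defSox2-alone summit, in an intron 20.8 kb from the start of Sort1 with a score of 664, also held an exact MORE match, in a repeat-masked stretch. The fourth by score, 145 kb from the start of Rap2b (537), held a TEAD site and no MORE, and lay 233 bp from a Sox2 summit. The Lpar6 site (Sox2 score 39.3) held a Sox site 27.0 bp from the summit, and an Oct4defSox2 summit lay 111 bp away. None of the other Sox2-alone summits among the 4 highest, near Sox21 (87.0), Npas3 (52.8) and Diaph3 (39.4), held any of the motifs scanned. The Sox21 site lay 103 bp from an Oct4defSox2 summit. It also had an Oct4 summit in Oct4-SK at days 1, 5 and 7 and an Oct4S151M summit, while those near Npas3 and Diaph3 had neither.

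Oct4defSox2 and Sox2 shared a large part of the Sox2 sites and a small part of the Oct4defSox2 sites. Of the 5793 Sox2 summits 46.8% (interval 45.5 to 48.1) had an Oct4defSox2 summit within 100 bp, while 8.73% (8.42 to 9.05) of the 31060 Oct4defSox2 summits had a Sox2 summit. The list sizes bear on both shares. With the 5793 strongest summits of each library the share was 15.6% in either direction.

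The limit of 100 bp cut through a continuous run of distances. A further 1154 Sox2 summits (19.9%) lay 101 to 250 bp from an Oct4defSox2 summit, 238 (4.11%) at 251 to 500 bp and 86 (1.48%) at 501 to 1000 bp. Only 129 (2.23%) were more than 100 kb away. Just inside the limit, at 91 to 100 bp, 175 Sox2 summits had a median score of 9.53, and just outside, at 101 to 110 bp, 178 had a median of 9.05. The 4 highest Sox2-alone summits lay 103, 149, 112 and 111 bp from an Oct4defSox2 summit. "Alone" is thus a label set by the distance, and 1602 of the 3080 Sox2-alone summits had no Oct4defSox2 summit within 1 kb.

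Within the co-bound pairs the summits were not tightly registered. The rule caps their spacing at 100 bp, and how precisely a summit marks the bound base was not measured. Their median spacing was 41.0 bp (quartiles 20 and 67), and 22 pairs (0.812%) had summits on the same base. Spacing fell off slowly, from 13% (11.8 to 14.3) of pairs at 0 to 10 bp to 6.38% (5.52 to 7.37) at 91 to 100 bp. In all, 860 pairs (31.7%, 30.0 to 33.5) had summits within 25 bp. For the 1623 Oct4/Sox2 pairs of Oct4-SK cells at day 1, where the POU factor can form the dimer, the median was 42.0 bp and 29.3% (27.2 to 31.6) lay within 25 bp. The difference of 2.41 points (−0.439 to 5.21) did not exceed counting error.

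**Figure D1:**
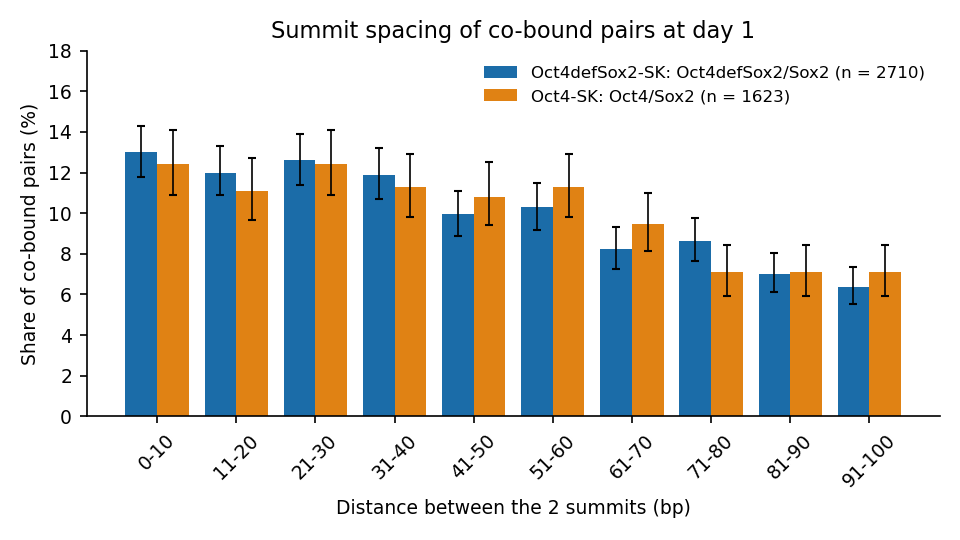
Share of co-bound pairs (y axis, %) by the distance between their 2 summits in bins of 10 bp (x axis, the nearest bin holding 11 distances), for Oct4defSox2/Sox2 in Oct4defSox2-SK and Oct4/Sox2 in Oct4-SK cells at day 1, with 95% Wilson intervals. Both distributions fall from about 13% and 12.4% in the nearest bin to 6.38% and 7.09% in the farthest.

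Stronger pairs were spaced somewhat more closely. In the lowest quartile of pairs by the lower of their score percentiles 27.7% (24.5 to 31.2) had summits within 25 bp, and in the highest quartile 35.1% (31.6 to 38.8). Pairs with a Sox site (median 43.0 bp, n = 947), SoxOct (45 bp, n = 105), an octamer (46.0 bp, n = 74) or MORE (41.0 bp, n = 48) were not closer than the 1624 pairs without any of these (40 bp). Of the pairs in promoters, 41.9% (32.4 to 52.1, n = 93) were within 25 bp, compared with 29.9% (27.5 to 32.4, n = 1311) in introns.

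The Sox site was nearly as far from either summit, while MORE and SoxOct matches, but not octamer matches, had smaller median distances to the Oct4defSox2 summit. In 641 pairs the windows of the 2 summits shared their best Sox match, which lay a median of 34.0 bp from the Sox2 summit and 38.0 bp from the Oct4defSox2 summit. It was nearer to the Sox2 summit in 344 of them (53.7%, 49.8 to 57.5). For MORE the shared match was nearer to the Oct4defSox2 summit in 25 of 37 pairs, at a median of 26.0 bp against 41.5 bp. It was nearer to Sox2 in 32.4% (19.6 to 48.5). For SoxOct it was nearer to Oct4defSox2 in 43 of 71 pairs, at 29.0 bp against 41.0 bp. The share nearer to Sox2 was 39.4% (28.9 to 51.1), an interval that takes in an even split. For the octamer the match was nearer to Oct4defSox2 in 27 of 51 pairs, but its median distance there was larger, 35.5 bp against 31.5 bp.

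Co-bound summits scored higher than alone summits in both libraries. The median score of Oct4defSox2 was 16.3 (quartiles 10.3 and 26.4) at co-bound and 11.1 (7.87 and 17.7) at Oct4defSox2-alone summits. For Sox2 it was 10.1 (7.61 and 13.6) at co-bound and 7.99 (6.50 and 10.6) at Sox2-alone summits. The top quartile of all Oct4defSox2 summits took in 42.6% of the co-bound and 23.2% of the alone summits, a difference of 19.3 points (17.4 to 21.3). For Sox2 the shares were 34.2% and 18.3%, a difference of 15.9 points (13.6 to 18.1). A score grows with read depth, which was not used here, so it was compared only within a library.

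The rise of co-binding with score stopped at the top of the Oct4defSox2 list. From the weakest decile to the ninth the co-bound share rose from 3.32% (2.74 to 4.01) to 17.1% (15.8 to 18.5), and in the strongest decile it was 13.9% (12.7 to 15.1). Among the 100 strongest Oct4defSox2 summits 5 were co-bound, and among the 10 strongest none was, which at 10 summits allows a share of up to 27.8%. MORE lay at 90.0% of these 10, at 55.0% of the 100 strongest and at 7.64% of all Oct4defSox2-alone summits. Sox2 had no such turn. Its co-bound share went from 31.4% (27.8 to 35.3) in the weakest to 66.0% (62.1 to 69.8) in the strongest decile, and 67 of its 100 strongest summits were co-bound. With the Oct4defSox2 list cut to its 5793 strongest summits, the difference in share in the top quartile turned to −5.97 points (−8.76 to −2.97).

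**Figure D2:**
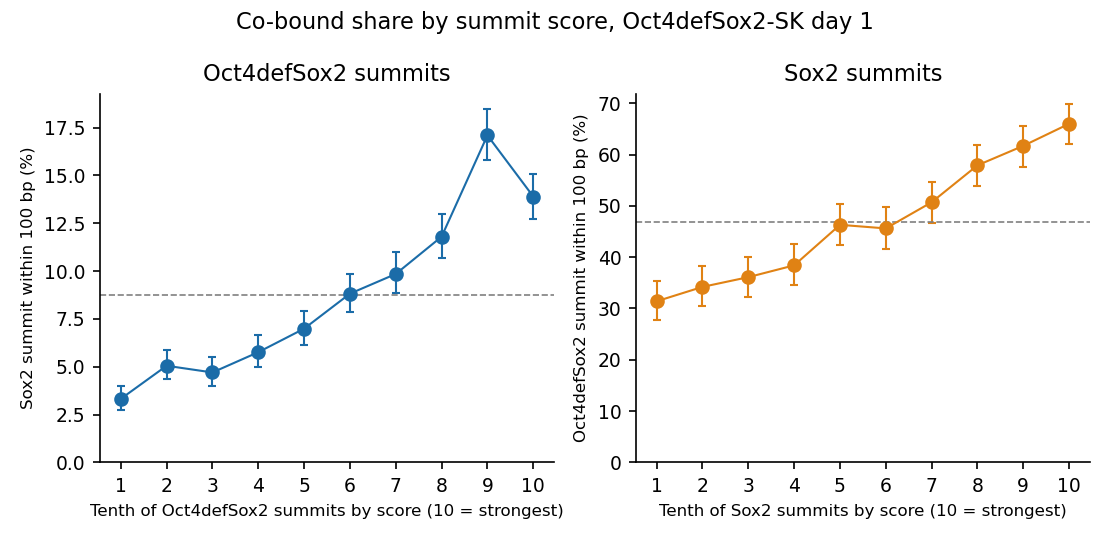
Share of summits with a summit of the other library within 100 bp (y axis, %) in deciles of each library by score (x axis, 10 being the strongest), for Oct4defSox2 (left) and Sox2 (right), with 95% Wilson intervals and the share over the whole list as a dashed line. The Oct4defSox2 share peaks at 17.1% in the ninth decile and the Sox2 share climbs to 66.0% in the strongest.

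Scores of the partners in a pair were weakly related (Spearman's rho 0.214 across 2710 pairs of the same 2 libraries, given as a description). Of the pairs, 497 (18.3%) were in the top quartile of both libraries, 1154 (42.6%) had Oct4defSox2 in its top quartile and 927 (34.2%) had Sox2 in its top quartile.

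POU motifs were scarcer at co-bound than at Oct4defSox2-alone summits, and Sox sites were more frequent. SoxOct lay at 3.47% (2.84 to 4.22) of co-bound and 7.88% (7.57 to 8.20) of Oct4defSox2-alone windows, a difference of −4.41 points (−5.12 to −3.60). MORE lay at 1.66% and 7.64%, a difference of −5.98 points (−6.50 to −5.35). The octamer lay at 2.55% and 9.44%, a difference of −6.89 points (−7.52 to −6.15). Windows of the same length 2 kb away held SoxOct in 1.36%, MORE in 0.775% and the octamer in 1.79% of cases around co-bound summits, the last close to the lower bound of the octamer share at co-bound summits (2.02%). Motifs were sought as consensus strings on both strands, with up to 2 mismatches for SoxOct and 1 for MORE, and a SoxOct match can overlap an octamer match.

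The single Sox site went the other way. It was found in 30.5% (28.8 to 32.3) of co-bound and 18.5% (18 to 18.9) of Oct4defSox2-alone windows, a difference of 12 points (10.3 to 13.8), with 7.76% in windows 2 kb away from co-bound summits. A Sox site without any POU motif lay at 28.5% of co-bound and 14.4% of Oct4defSox2-alone summits. AP-1 sites lay at 15.3% (14 to 16.7) and 14.2% (13.8 to 14.6), 1.13 points apart (−0.235 to 2.60) that did not exceed counting error. For TEAD sites (ACATTCC or GCATTCC) the shares were 8.04% and 7.68%, and for RUNX sites (TGTGGTTT or TGTGGTTA) 5.16% and 5.56%. KLF sites (GGGTGTGGC or GGGCGTGGC), the type that Klf4 reads, lay at 0.738% and 0.988%. Neither TEAD, RUNX nor KLF differed beyond counting error. In 54.1% of co-bound and 54.0% of Oct4defSox2-alone windows no POU, Sox or AP-1 match was found.

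**Figure D3:**
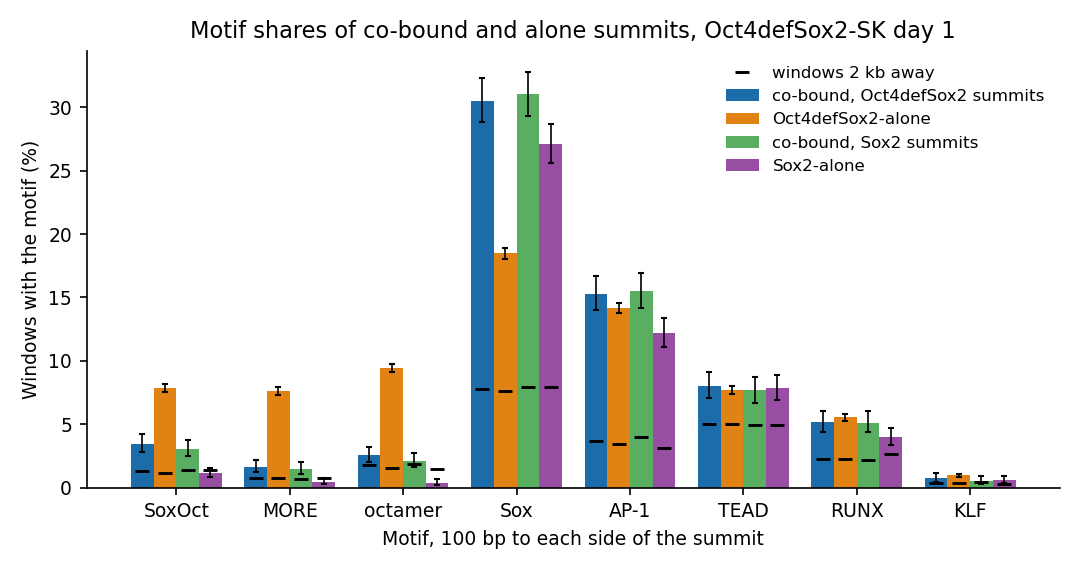
Share of summit windows that hold each motif (y axis, %), for the co-bound summits of both libraries and for the alone summits, with 95% Wilson intervals and background windows as dashes. POU motifs peak at Oct4defSox2-alone summits (SoxOct 7.88%, MORE 7.64%, octamer 9.44%), and the single Sox site reaches 30.5% and 31.0% at co-bound and 27.1% at Sox2-alone summits.

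These differences were present at all levels of score. In the 4 quartiles of the Oct4defSox2 list the SoxOct difference between co-bound and alone summits ran from −2.97 points (−3.97 to −0.934) in the lowest to −6.81 points (−8.28 to −5.12) in the highest. The MORE difference ran from −3.00 points (−3.62 to −1.37) to −12.1 points (−13.3 to −10.7). The Sox difference stayed between 10.7 and 12.7 points, each interval above 0.

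Against Sox2-alone summits, the comparison for POU motifs had the opposite sign. SoxOct lay at 3.06% (2.47 to 3.78) of co-bound Sox2 windows and 1.14% (0.818 to 1.58) of Sox2-alone windows, a difference of 1.92 points (1.19 to 2.71). The octamer lay at 2.10% and 0.390%, a difference of 1.71 points (1.15 to 2.34). At Sox2-alone summits the octamer was below the 1.51% of windows 2 kb away, and SoxOct was close to its 1.44%. The few Sox2 summits that did hold a POU motif were mostly co-bound, 169 of 227 (74.4%, 68.4 to 79.7), compared with 45.7% of those without. The Sox site lay at 31.0% and 27.1%, a difference of 3.89 points (1.55 to 6.23), and AP-1 at 15.5% and 12.2%, a difference of 3.31 points (1.53 to 5.11). Both of these lost their distance from 0 when only summits scoring at least 10 were kept, at 0.480 points (−3.36 to 4.33) for Sox and 2.25 points (−0.536 to 5.06) for AP-1. The Sox difference also did so with co-binding counted to 250 bp, at 0.562 points (−1.93 to 3.01).

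Co-binding was also counted by motif, a view chosen after the values were seen. Oct4defSox2 summits with SoxOct were co-bound in 4.04% (3.31 to 4.92) of 2328 cases, and those without it in 9.11%, a difference of −5.07 points (−5.87 to −4.13). For MORE the shares were 2.04% (1.53 to 2.71) and 9.24%, and for the octamer 2.51% (1.99 to 3.17) and 9.33%. Summits with a Sox site and no POU motif were co-bound in 16% (15.0 to 17.0) of 4844 cases. Where a Sox site and a POU motif occurred together the share was 4.42% (3.40 to 5.72) of 1223.

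Oct4 in Oct4-SK cells gave a different order for SoxOct. Its summits with SoxOct had a Sox2 summit in 22.3% (20.1 to 24.7) of 1236 cases and those without in 19.4%, a difference of 2.91 points (0.487 to 5.49). For MORE the difference was −11.2 points (−13.3 to −8.87), and for the octamer it was −1.41 points (−4.28 to 1.77). Oct4 summits with a Sox site and no POU motif were co-bound in 33.0% (29.9 to 36.1). Where a Sox site and a POU motif occurred together, the Oct4 share was lower too, at 19.4% (16.1 to 23.1) of 480. Oct4 summits with any POU motif were co-bound in 17.6% and those without in 20.8%, −3.14 points (−4.96 to −1.27) apart. For Oct4defSox2 these shares were 2.98% and 10.2%, −7.24 points (−7.78 to −6.66) apart. The 2 cocktails were compared through the co-bound sites themselves. Any POU motif lay at 7.05% (6.14 to 8.07) of Oct4defSox2/Sox2 and 26.3% (24.2 to 28.5) of Oct4/Sox2 co-bound summits, a difference of −19.2 points (−21.6 to −16.9). The single Sox site was 7.04 points (4.32 to 9.70) more frequent in Oct4defSox2-SK, and AP-1 3.15 points (1.02 to 5.20). Over all summits of the 2 POU lists, any POU motif lay at 20.6% of Oct4defSox2 and 29.6% of Oct4 summits (−8.97 points, −10.1 to −7.90), the Sox site at 19.5% and 16.6% (2.98 points, 2.05 to 3.89) and AP-1 at 14.3% and 11.3% (2.97 points, 2.16 to 3.74), so that the AP-1 difference at co-bound sites was close to that of the whole lists.

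**Figure D4:**
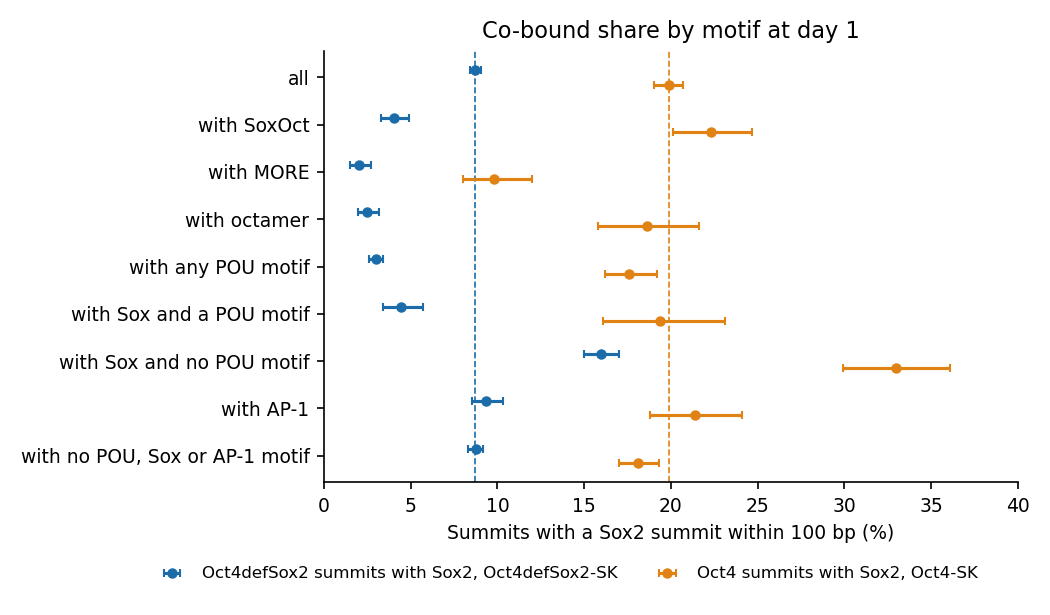
Share of summits with a Sox2 summit within 100 bp (x axis, %) by the motifs in their windows (y axis), for Oct4defSox2 in Oct4defSox2-SK and Oct4 in Oct4-SK cells at day 1, with 95% Wilson intervals and the share of all summits as dashed lines. For Oct4defSox2 every POU class lies left of its line, SoxOct at 4.04% against 8.73%. For Oct4 SoxOct lies right of its line, at 22.3% against 19.9%. The other POU classes of Oct4 lie left of it, MORE at 9.80%, any POU motif at 17.6%, the octamer at 18.6% and Sox with POU at 19.4%.

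The composite with canonical spacing was rare in all groups. A Sox core and an octamer with up to 1 mismatch, in the canonical order with 1 base between them, lay at 5 of 2711 co-bound and 176 of 28349 Oct4defSox2-alone windows (0.184% and 0.621%). At Oct4/Sox2 co-bound Oct4 summits of Oct4-SK it lay at 12 of 1628 windows (0.737%). Windows 2 kb away held it in 0.0212% of cases around Oct4defSox2-alone summits and in 0% around both co-bound sets. Spacings other than canonical, from 0 to 20 bases, lay at 1.73% of co-bound and 2.00% of Oct4defSox2-alone windows, and at 2.95% in Oct4-SK. MORE matches that did occur at co-bound sites lay less often close to the summit. Of them, 40% (n = 45) were within 25 bp of the co-bound Oct4defSox2 summit and 55.4% (n = 2165) of an Oct4defSox2-alone summit, a difference of −15.4 points (−28.5 to −0.682). For SoxOct the shares were 38.3% and 48.5%, a difference of −10.2 points (−19.6 to 0.132) that did not exceed counting error, and for the octamer the difference was −9.29 points (−19.6 to 2.63). For the Sox site it was 1.65 points (−1.70 to 5.14), with 32.5% and 30.9% within 25 bp.

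Co-bound sites lay mostly away from promoters. Of the co-bound Oct4defSox2 summits 48.4% were in introns, 45.8% between genes, 2.43% in exons and 3.43% (2.81 to 4.18) within 1 kb of an annotated start. The promoter share was 6.67% (6.39 to 6.97) at Oct4defSox2-alone summits, a difference of −3.24 points (−3.93 to −2.43). At co-bound Sox2 summits it was 3.39% (2.77 to 4.14) and at Sox2-alone summits 4.61% (3.92 to 5.41), a difference of −1.22 points (−2.23 to −0.203) that lost its distance from 0 under 4 alternatives. Windows with 6 or more CG dinucleotides, typical of CpG islands, made up 0.996% of co-bound and 4.42% of alone Oct4defSox2 summits, and 1.11% of co-bound and 2.40% of alone Sox2 summits. More than 50 kb from any coding start were 59.3% of co-bound and 54.3% of Oct4defSox2-alone summits, a difference of 5.03 points (3.08 to 6.95). The summit base was repeat-masked in 12.7% of co-bound and 18.3% of alone Oct4defSox2 summits, and in 13.2% of co-bound and 15.2% of alone Sox2 summits.

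The sex chromosomes held few sites. Y held 1 Oct4defSox2 and 0 Sox2 summits. X makes up 6.28% of the sequence considered and held 2.70% of Oct4defSox2 and 1.12% (0.881 to 1.43) of Sox2 summits. Of the 65 Sox2 summits on X, 32 were co-bound (49.2%, 37.5 to 61.1), close to the 46.8% elsewhere. Of the 838 Oct4defSox2 summits on X, 3.82% (2.72 to 5.34) were co-bound, against 8.86% elsewhere. On chromosomes 1 to 19 the co-bound share of Oct4defSox2 summits lay between 7.10% and 10.0%.

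In the other libraries, co-bound sites were recovered by Sox2 far more often than alone sites were. Sox2 of Oct4-SK at day 1 (15219 summits used) lay within 100 bp of 40.4% (38.6 to 42.3) of co-bound and 10.1% (9.74 to 10.4) of Oct4defSox2-alone summits, a difference of 30.3 points (28.5 to 32.2). From the Sox2 side it was at 39.6% (37.7 to 41.4) of co-bound and 17.7% (16.4 to 19.1) of Sox2-alone summits, a difference of 21.9 points (19.6 to 24.1). That difference stood between 17.0 and 19 points in the 4 quartiles of Sox2 score. In Oct6-SK, with Oct6 as the POU factor, Sox2 at day 1 lay at 17.4% (16.1 to 18.9) of co-bound and 7.31% (6.44 to 8.28) of Sox2-alone summits, in a list of 3242 summits. Oct6M151S, pulled down with an Oct6 antibody and called at a looser threshold, was at 12.8% of co-bound, 4.94% of Oct4defSox2-alone and 5.52% of Sox2-alone summits.

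Oct4 itself was not more frequent at co-bound than at Oct4defSox2-alone sites, but it was more frequent than at Sox2-alone sites. In Oct4-SK at day 1 (8199 summits used) it lay at 14.8% (13.5 to 16.2) of co-bound and 15.2% (14.8 to 15.6) of Oct4defSox2-alone summits, a difference of −0.361 points (−1.72 to 1.09). Within each quartile of Oct4defSox2 score, though, co-bound summits had less Oct4, with −3.14 points in the lowest (0.912% and 4.05%) and −10.0 points in the highest quartile (29.7% and 39.8%), and all 4 intervals were below 0. With the 5793 strongest summits of each library the difference was −11.0 points (−14.4 to −7.54). Oct4S151M, whose residue exchange was made to favour homodimers (101151 summits used), lay at 38.5% (36.7 to 40.4) of co-bound and 43.9% (43.3 to 44.5) of Oct4defSox2-alone summits. From the Sox2 side, Oct4 lay at 13.7% (12.5 to 15.1) of co-bound and 2.37% (1.89 to 2.97) of Sox2-alone summits, a difference of 11.3 points (9.96 to 12.8).

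Seen together, 30.2% of co-bound Oct4defSox2 summits had Sox2 without Oct4 in Oct4-SK at day 1, 10.2% had both, 4.61% had Oct4 without Sox2 and 55.0% had neither. For Oct4defSox2-alone summits these shares were 6.71%, 3.38%, 11.8% and 78.1%.

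**Figure D5:**
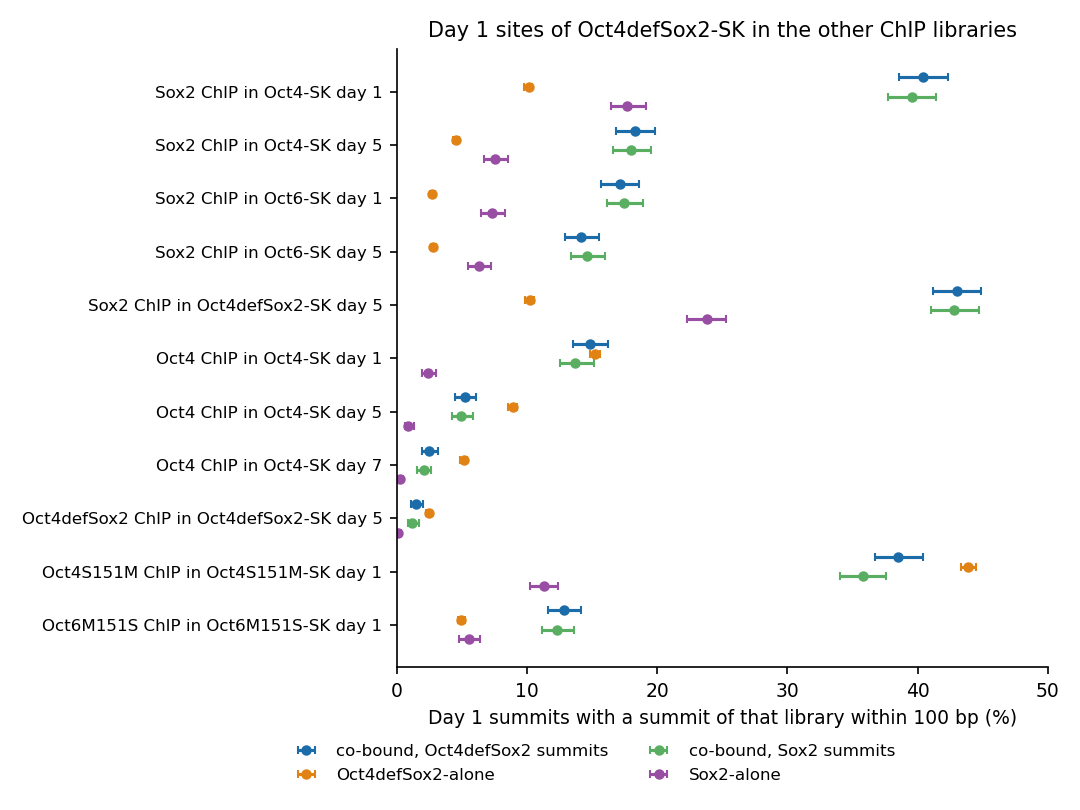
Share of day 1 summits of Oct4defSox2-SK (x axis, %) with a summit within 100 bp in each of the 11 other ChIP libraries (y axis), for the co-bound summits of both libraries and for the alone summits, with 95% Wilson intervals. In the 5 other Sox2 libraries co-bound summits lie highest, up to 43.0% at day 5 of Oct4defSox2-SK, and in the Oct4 libraries Oct4defSox2-alone summits lie at or above them.

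By day 5 Sox2 was still found at many co-bound sites and Oct4defSox2 at few. Sox2 of Oct4defSox2-SK at day 5 (21551 summits used) lay at 42.8% (41.0 to 44.7) of co-bound and 23.8% (22.3 to 25.3) of Sox2-alone summits, a difference of 19.1 points (16.7 to 21.4). Oct4defSox2 at day 5, with 1034 summits used, lay at 1.48% (1.09 to 2.00) of co-bound and 2.43% (2.26 to 2.62) of Oct4defSox2-alone summits, a difference of −0.955 points (−1.39 to −0.400). By quartile of Oct4defSox2 score the difference exceeded counting error in the highest (3.19% and 9.02%, −5.83 points, −6.96 to −4.48) and in none of the other 3. Of the 2710 pairs, 20 had both factors at day 5, 1141 (42.1%, 40.3 to 44.0) had Sox2 without Oct4defSox2, 20 had Oct4defSox2 without Sox2 and 1529 (56.4%) had neither. The unequal list sizes bear on these counts. Pairs that had Sox2 at day 5 held a Sox site in 37.6% (34.8 to 40.4) of cases and pairs that did not in 26.0% (23.9 to 28.3), a difference of 11.5 points (8.00 to 15.1). The octamer was less frequent in the former, at 1.03% and 2.91%, a difference of −1.87 points (−2.93 to −0.817).

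Summits between 101 and 250 bp apart, a split made after the values were seen, were also counted. From the Sox2 side, Sox2 of Oct4-SK at day 1 lay at 39.6% of co-bound summits, at 28.3% (25.8 to 31.0) of the 1154 Sox2 summits at 101 to 250 bp, and at 11.2% (9.72 to 12.8) of the 1602 without Oct4defSox2 within 1 kb. From the Oct4defSox2 side, any POU motif lay at 7.98% (6.58 to 9.64) of the 1216 summits 101 to 250 bp from Sox2, near the 7.05% of co-bound summits, and at 22.8% (22.3 to 23.3) of the 26338 summits more than 1 kb from Sox2. The promoter share of Sox2 summits was 3.39% (2.77 to 4.14) at co-bound sites, 2.86% (2.04 to 3.99) at 101 to 250 bp and 6.18% (5.10 to 7.47) beyond 1 kb. The Sox site lay at 31.0%, 24.7% (22.3 to 27.3) and 29.3% (27.1 to 31.6) of these Sox2 summits, lowest in the middle class.

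Co-bound pairs were scattered over the genome. Joined when within 12.5 kb of each other they formed 2613 regions, of which 92 held 2 or more pairs and 5 held 3. By nearest coding start they were assigned to 1894 of 21827 protein-coding genes, 1402 of which had 1 pair and 31 of which had 5 or more. Among the 15 genes with most pairs, the farthest pair lay between 241 kb (Zbtb20) and 2215 kb (Pik3c3) from the start.

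In that ranking, ties were broken by the score percentile of a gene's best pair. Flrt2, for a membrane protein of adhesion and axon guidance, had 11 pairs at 200 to 1434 kb, with a highest Oct4defSox2 score of 112 and a highest Sox2 score of 29.9, along with 53 Oct4defSox2-alone and 14 Sox2-alone summits. Cdh2, for N-cadherin of mesenchymal cells, had 8 pairs, the nearest 0.202 kb from its start, and 7 of the 8 had a Sox2 summit in Oct4-SK at day 1. Over all co-bound Oct4defSox2 summits that share was 40.4%. Among the 15 genes the count was lowest, at 0 of 6 pairs, for Bmp2 and Lyplal1. Efnb2, for the ligand ephrin-B2, and Zbtb20, for a zinc finger repressor, had 8 pairs each. Pik3c3, for a lipid kinase, Epha7, for an Eph receptor, and Tenm4, for a teneurin, had 7 each. Fhit, Marcks, Robo1, Tfec, Bmp2, Dlg2 and Lyplal1 had 6 each, and Adgrl3, for a latrophilin, had 5. At Bmp2, for a BMP ligand, pairs lay 128 to 442 kb from the start, 3 of the 6 held a Sox site and none a POU motif. Over all co-bound Oct4defSox2 summits these shares were 30.5% and 7.05%, from which so few pairs cannot set Bmp2 apart. All 15 genes also had Oct4defSox2-alone summits, from 7 at Tfec to 56 at Adgrl3. No group of functions was tested among these genes.

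Genes of 10 panels that bear on reprogramming were then examined for a pair within 50 kb of a start. Over all coding genes 7.22% had such a pair, and over the 194 panel genes 19 did (9.79%, 6.36 to 14.8). By panel the counts within 50 kb were 3 of 28 for pluripotency, 5 of 34 for mesenchymal, 0 of 21 for epithelial, 0 of 12 for AP-1 and 3 of 24 for TGF-beta and BMP genes. They were 3 of 19 for the Sox, 2 of 17 for the Klf and 3 of 15 for the POU family, and 1 of 16 for Hippo genes. At this distance the Wilson interval of each of these panels took in 7.22%. Oct4defSox2-alone summits lay within 50 kb of 54.9% of all coding genes, and Sox2-alone summits of 8.05%. Within 10 kb, 9 of the 194 panel genes had a pair (4.64%, 2.46 to 8.58), against 1.55% of all coding genes. The intervals of 4 panels lay above that share, each on 2 genes, namely pluripotency (2 of 28, 1.98 to 22.6%), Sox (2 of 19, 2.94 to 31.4%), Klf (2 of 17, 3.29 to 34.3%) and POU (2 of 15, 3.74 to 37.9%), and these panels share members. Within 100 kb, 33 did (17.0%, 12.4 to 22.9), against 13.6%. By panel the counts at 100 kb ran from 0 of 21 epithelial and 0 of 12 AP-1 genes to 9 of 34 mesenchymal (26.5%, 14.6 to 43.1) and 7 of 19 Sox family genes (36.8%, 19.1 to 59.0). Of the same 19 genes, 8 had a Sox2-alone summit within 100 kb (42.1%, against 14.7% of all coding genes). The panels were chosen with results of these data known, and no test of them was made.

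Among pluripotency genes, Klf2, for a Krüppel-like factor, had a pair 2.82 kb from its start at which Oct4defSox2 scored 11.9 and Sox2 17.6. Zfp42, for Rex1, had a pair at 42.1 kb (22.3 and 10.4). Pou5f1, the gene of Oct4, had a pair 0.304 kb from its start (9.86 and 32.6, 14 bp apart) whose Oct4defSox2 summit lay in coding sequence. The Oct4defSox2 retrovirus carries Oct4 coding sequence too, and the part of viral DNA in that summit was not tested. No pair lay within 50 kb of Nanog, Esrrb, Sall4 or Sox2.

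Mesenchymal genes with a pair were Col3a1, for a fibrillar collagen (54.3 and 11.3, at 29.8 kb), Cdh2 (38.1 and 4.75), Fn1, for fibronectin (28.7 and 8.70, at 38.3 kb), Fbn1, for fibrillin-1 (16.8 and 19.3, at 18.1 kb) and Vim, for vimentin (6.49 and 8.14, at 46.5 kb). All 5 pairs had a Sox2 summit in Oct4-SK at day 1, as did 40.4% of all co-bound Oct4defSox2 summits. Those of Fn1, Fbn1 and Col3a1 had Sox2 at day 5 in Oct4defSox2-SK, as did 43.0% of all co-bound Oct4defSox2 summits. In the TGF-beta and BMP panel the genes were Smad2 (6.89 and 21.2, at 5.05 kb) and Smad1 (11.9 and 7.23, at 48.5 kb), for signal transducers, and Id2 (11.9 and 7.99, at 27.6 kb), for an inhibitor of basic helix-loop-helix factors.

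The transcription factor families gave further pairs near starts. Sox13 had 2 pairs, the nearer 4.50 kb from its start (30.8 and 18.6). Both had Sox2 at day 5, as did 43.0% of all co-bound Oct4defSox2 summits. Sox6 had 2 pairs, the nearer 0.158 kb from a start (8.64 and 5.27), and Sox7 had 1 at 10.9 kb (20.7 and 10.1). Klf3 had a pair at 2.81 kb (12 and 9.46) and Pou1f1 at 13.5 kb (30.2 and 14.5). The pair at Pou3f1, the gene of Oct6, lay at 1.83 kb in its coding sequence (9.72 and 13.8). Yap1, the Hippo effector, had a pair at 2.37 kb (9.92 and 11.7, 12 bp apart).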

How the data were processed

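ChIP-seq reads were paired-end. The authors aligned them to mm10 with Bowtie2 (2.2.5 per the submitters' processing notes), removed reads of low mapping quality and duplicates with SAMtools, and called peaks per library with MACS2, per their methods at p 0.0001 and with several summits per peak allowed. The lowest score was about 4 in 12 libraries and 2.30 in Oct6M151S, whose list was thus made at a looser threshold. The deposited value of each summit is the −log10 of its p-value, which the authors neither adjusted nor scaled between libraries. The peak files hold no read depth and none was used here, so no depth-based limit is given, and list size is the measure of yield. Samples were grouped by title. Each group had 1 library. The 3 input samples and the peak tables that 2 libraries also had were not used here. The co-bound groups, motifs, gene panels and sites were chosen with earlier results of these data known.

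Of 31070 Oct4defSox2 and 5794 Sox2 summits, 10 and 1 lay off chromosomes 1 to 19, X and Y and were left out. No summit (0) lay past a chromosome end of GRCm38, whose RefSeq sequence and GENCODE M21 basic annotation were used. Motifs were consensus strings sought on both strands in 201 bp windows, and background windows lay 2 kb to either side. The authors used weight matrices, so motif shares are not on their scale. Shares have Wilson and differences Newcombe 95% intervals, over 20 results. Differences whose interval left out 0 were taken to exceed counting error. Named were the 8 pairs highest in both libraries, the 4 highest summits of each alone group, up to 15 genes with most pairs by nearest coding start, and panel genes with a pair within 50 kb. In the Hippo panel 16 of 18 names were found. The result of 1 panel is not reported here. Alternatives are listed in the closing section. Calculations used Python, numpy, pandas and numba, and figures matplotlib. The procedure was tested on simulated data.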

Additional observations from a re-analysis of the deposited data

How the results depend on the processing

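Of 141 alternatives to the 20 results, 114 left the result on the same side of counting error or within its interval. The share of Oct4defSox2 summits co-bound was 5.19% at 50 bp, 12.6% at 250 bp, 6.18% with scores of at least 10, 15.6% with the 5793 strongest summits of each library and 7.92% without sites of Oct6M151S. The share of Sox2 summits co-bound was 27.8%, 66.8%, 48.6%, 15.6% and 43.9% under these, and 45.3% with 1 summit per peak. The share of pairs within 25 bp was 53.3% at 50 bp and 22.7% at 250 bp, where the range of distances itself differs, and 34.4% with scores of at least 10. The promoter difference from Sox2-alone fell within counting error at 50 bp (−0.697 points), with scores of at least 10 (−0.487), equal list sizes (−0.850) and a 5 kb promoter (−1.32). Against Sox2-alone, the Sox difference did so at 250 bp (0.562) and with scores of at least 10 (0.480), and the AP-1 difference with scores of at least 10 (2.25). Against Oct4defSox2-alone, the AP-1 difference was −0.00548 points with scores of at least 10, and the top-quarter difference turned to −5.97 points with equal list sizes. The difference in Oct4 of Oct4-SK passed counting error with scores of at least 10 (−3.05), equal list sizes (−11.0) and without Oct6M151S sites (−2.13), and was 0.172 points when Oct4 was counted to 250 bp. Apart from the distances, which change what counts as co-bound, and the list sizes, which change what is compared, the cause was not tested. Panel genes with a pair were 9 within 10 kb (4.64%, all coding genes 1.55%), 19 within 50 kb (9.79% and 7.22%) and 33 within 100 kb (17.0% and 13.6%). The SoxOct, MORE, octamer and Sox differences from Oct4defSox2-alone, the SoxOct difference from Sox2-alone, the differences in Sox2 of Oct4-SK at day 1 and in Sox2 and Oct4defSox2 of Oct4defSox2-SK at day 5 kept their direction and their side of counting error under each alternative, a stricter or looser motif match and a 50 bp window included where they applied. No paired analysis was possible because each group had 1 library. Read depth was not used here, and it limits which weaker sites of either factor were called.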
